A study of Mus musculus with 6 samples.

Results

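The genes described here are 40 transcripts of arterial endothelial cells, the flat cells that line the lumen of every artery, measured in whole mesenteric arteries of the mouse. They were chosen by gene symbol as known endothelial genes, and every probe set whose annotation names 1 of these symbols alone was taken. All 40 genes are named on the array, by 71 of its 45037 probe sets, and 39 of them passed the filter on low signal, among 10654 genes tested. The gene left out by the filter was Gja5.

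The knockout group held 3 mice (animals 72, 73 and 86) with loxP-flanked beta1 integrin alleles and a Cre recombinase driven by SM22alpha, the promoter of the smooth muscle gene Tagln. The control group held 3 mice (animals 30, 74 and 75) with the same flanked alleles and no Cre. All 6 mice were of a mixed strain background, were given tamoxifen daily at 1 mg for 14 days, a course begun when they were 5 weeks old, and were studied at an age of 7 weeks. The controls lack Cre, so the presence of Cre and the loss of beta1 integrin cannot be told apart. Recombination was aimed at smooth muscle, not at endothelium, and each array holds RNA of the whole vessel, described as cleared of adipose and lymph tissue. Adipocyte transcripts remained. Adipoq read from 11.31 in control 30, the lowest array, to 13.53 in control 74, the highest. The comparison thus bears on how endothelial transcripts stood in arteries whose smooth muscle had been targeted.

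Endothelial cells meet at junctions built from VE-cadherin, claudins and immunoglobulin-type adhesion molecules. They read vascular endothelial growth factor (VEGF) through Kdr and Flt1 and the angiopoietins through the receptor Tek, and they hold their identity through transcription factors of the ETS and SOX families. Arterial endothelium also carries the Notch ligand Dll4, ephrin-B2, the kinase Bmx and the gap junction proteins encoded by Gja4 and Gja5. The nitric oxide made by Nos3 relaxes the smooth muscle beneath, and mural cells in turn supply angiopoietin-1 to endothelial Tek.

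Values are log2(intensity + 1) after quantile normalization between arrays, 1 probe set standing for each gene, and all differences are knockout minus control on that scale. A gene passed the test at a limma adjusted p under 0.05 over all 10654 genes. Over all genes 258 passed, 188 higher and 70 lower in knockout arteries, and the share of higher ones among those passing was 72.9%, or 61.3% with median centring, 90.2% with no filter and 48.4% with array weights. Median intensity per array lay between 62.8 and 72.6. The targeted gene Itgb1 stood at 10.51, 10.56 and 10.76 in knockout arrays 72, 73 and 86, against 11.80, 11.04 and 11.20 in control arrays 30, 74 and 75. These values do not overlap, and the difference of -0.73 (SE 0.22) had a limma adjusted p of 0.127. Knockout 86 had an Xist value of 11.83, against 5.29 to 6.09 in the other 5 arrays, in keeping with the letter F in its label where the other labels carry an M. No control label carries an F, so sex was not balanced between the groups, and its part in the differences was not tested.

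Promoter windows are printed because they belong to Tek and Bmx, whose knockout values lay below every control value, and to Dll4, whose knockout values lay above. The windows are RefSeq sequence of build GRCm38.p6, 250 bases before to 50 bases after the gene start, read 5′ to 3′ along the gene, and capitals mark CAGGAA or its reverse complement TTCCTG, a core that ETS factors can bind.
Tek (chr4:94739039-94739338, plus strand): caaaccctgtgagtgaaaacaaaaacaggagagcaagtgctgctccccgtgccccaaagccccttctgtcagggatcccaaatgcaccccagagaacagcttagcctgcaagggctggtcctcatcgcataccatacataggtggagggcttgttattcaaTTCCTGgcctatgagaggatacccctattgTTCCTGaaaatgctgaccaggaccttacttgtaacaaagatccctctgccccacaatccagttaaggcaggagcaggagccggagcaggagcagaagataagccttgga
Bmx (chrX:164258144-164258443, minus strand): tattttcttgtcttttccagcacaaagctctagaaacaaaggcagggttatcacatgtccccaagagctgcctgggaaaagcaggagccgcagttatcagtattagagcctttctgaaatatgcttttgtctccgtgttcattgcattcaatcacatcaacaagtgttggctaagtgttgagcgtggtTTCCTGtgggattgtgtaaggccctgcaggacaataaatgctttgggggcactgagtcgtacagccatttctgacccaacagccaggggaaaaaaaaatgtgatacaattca
Dll4 (chr2:119325534-119325833, plus strand): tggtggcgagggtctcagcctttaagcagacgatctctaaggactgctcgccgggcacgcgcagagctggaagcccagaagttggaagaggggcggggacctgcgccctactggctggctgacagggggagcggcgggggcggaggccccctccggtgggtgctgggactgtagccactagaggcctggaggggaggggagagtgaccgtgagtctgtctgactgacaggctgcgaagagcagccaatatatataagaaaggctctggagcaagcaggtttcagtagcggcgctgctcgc

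The letters CAGGAA occurred 2 times in the Tek window, 1 time in the Bmx window and 0 times in the Dll4 window, on either strand. Of the 40 genes, 22 had at least 1 window in the RefSeq table, 27 windows in all, and 15 of these windows (55.6%) held CAGGAA on either strand, against 30.6% of all 32851 promoter windows of the same length. The shorter ETS core GGAA, which CAGGAA contains, was in 96.3% of the endothelial windows and 96% of all windows. It also stands, unmarked, in the Dll4 window. AACAAT, a core of SOX factor sites, was in 14.8% and 10.7%, and AGATAA, a core of GATA factor sites, in 11.1% and 11.2%. These matches are descriptions of letters, and the motifs and the printed genes were picked with the expression results known. Whether motif counts go with the direction of a difference was not tested.

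None of the 39 endothelial genes tested passed the limma threshold, where 2.42% of all genes did so, 1.76% as higher and 0.657% as lower. Most stood a little below control. The difference was below 0 for 31 of 39 genes, against 56.9% of all genes tested, and the median difference was -0.29, against -0.05 over all genes. In 11 genes every knockout value lay below every control value, where 15.1% of all genes did so, and in 1 gene, Dll4, every knockout value lay above, where 13.0% of all genes did so, 28.1% in either direction. The same 12 genes had an unadjusted limma p under 0.05, 11 lower and 1 higher, against backgrounds of 21.4% in all, 11.5% lower and 9.86% higher. The 11 lower genes stood at 55.2% to 80.3% of control, with adjusted p from 0.0801 to 0.177. With array weights, 9 of the 11 passed as lower, in a fit in which 10.6% of all genes passed. With whole vessels, a smaller endothelial share of the RNA, as with fewer endothelial cells, and less of these transcripts per endothelial cell cannot be told apart.

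**Figure D1:**
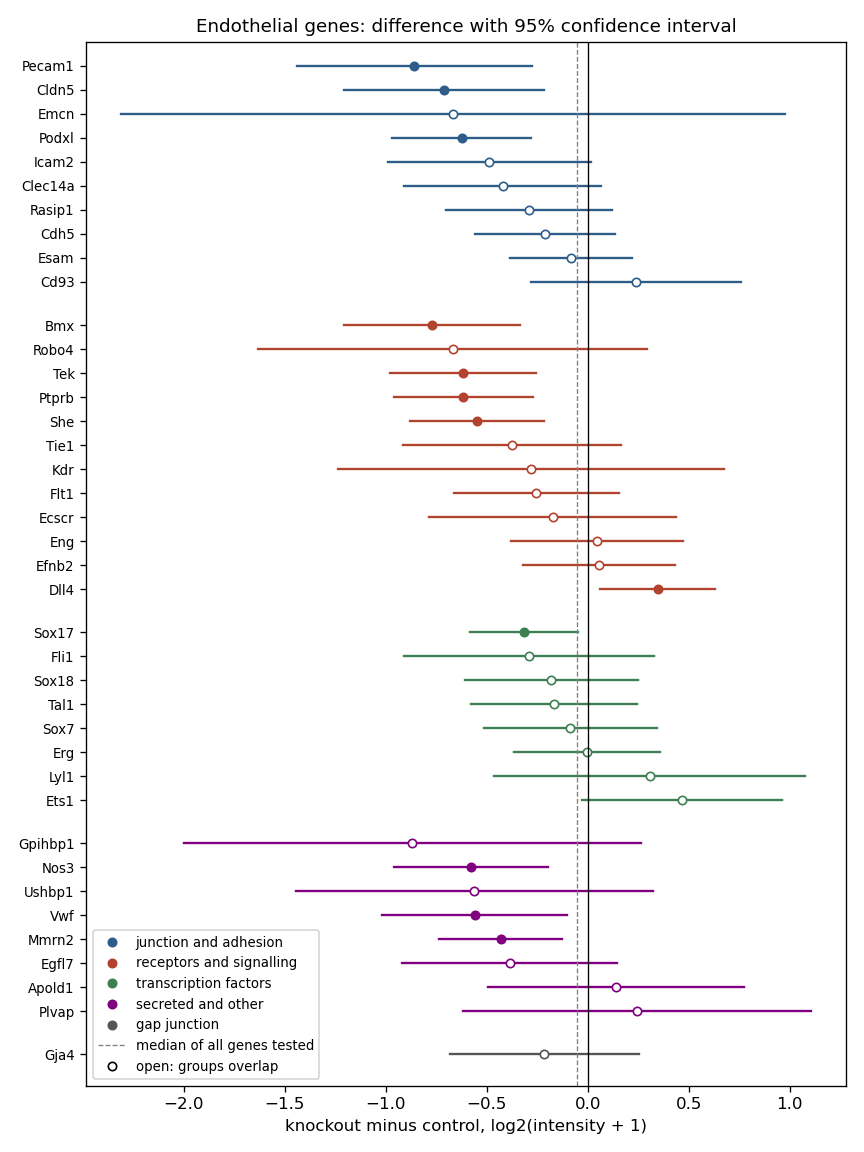
Difference between knockout and control arteries for the 39 endothelial genes tested, in log2(intensity + 1), with the 95% confidence interval of the limma fit (3 arrays per group). Colours give the role, filled points mark genes whose groups do not overlap, and the dashed line is the median of all 10654 genes at -0.05. Most points lie left of the line, and Dll4 is the filled point to its right.

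Among the 10 junction and adhesion genes, 9 differences were below 0, against 56.9% of all genes tested, and the median was -0.45. In 3 of them every knockout value lay below every control value, where 15.1% of all genes did so. Pecam1, which encodes the junctional adhesion molecule CD31, stood at 10.02, 10.71 and 10.74 in knockout arrays 72, 73 and 86, against 11.21, 11.68 and 11.14 in control arrays 30, 74 and 75. Every knockout value was below the lowest control value, and the difference was -0.86 (SE 0.25, 55.2% of control, limma adjusted p = 0.123). Cldn5, the main claudin of endothelial tight junctions, stood at 10.35, 10.79 and 9.99 in knockout arrays and at 11.08, 11.17 and 11.01 in control arrays. The control arrays lay close together and the knockout arrays were spread over a wider range, with a difference of -0.71 (SE 0.21, adjusted p = 0.127). Podxl, a sialomucin of the luminal surface, stood at 10.97, 10.99 and 10.74 in knockout arrays and at 11.68, 11.56 and 11.33 in control arrays. It had the smallest adjusted p of the 39 genes (difference -0.62, SE 0.15, adjusted p = 0.0801).

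Other junction genes differed less or varied more. Cdh5, which encodes VE-cadherin, the cadherin of endothelial adherens junctions, stood at 11.64, 11.89 and 11.50 in knockout arrays and at 11.84, 11.81 and 12.00 in control arrays, and the groups overlapped. Its 95% confidence interval ran from -0.56 to 0.13 around -0.21. Esam, another junctional adhesion molecule, differed by -0.08 (interval -0.39 to 0.22). Icam2, which binds leukocyte integrins, differed by -0.49 (adjusted p = 0.244), and Rasip1, an endothelial Ras-interacting protein of lumen formation, by -0.29 (adjusted p = 0.372). Emcn, an endothelial sialomucin, had the widest spread of the 39 genes, with 7.59, 9.12 and 6.71 in knockout arrays and 7.46, 9.41 and 8.55 in control arrays. Its groups overlapped through most of their range.

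The C-type lectin-like receptors Clec14a and Cd93 and their matrix ligand Mmrn2 did not all stand on the same side of 0. Mmrn2 stood at 11.57, 11.87 and 11.66 in knockout arrays and at 12.18, 12.09 and 12.12 in control arrays (difference -0.43, SE 0.13, adjusted p = 0.13). Differences in its 3 other probe sets above the filter were -0.48, -0.49 and -0.56, each without overlap. The probe set at -0.48 has an x suffix, so some of its probes also match other sequences. The brighter Clec14a probe set differed by -0.42 (adjusted p = 0.286) with overlap. Its other probe set read 6.62, 7.01 and 6.72 in knockout arrays and 7.69, 7.70 and 7.70 in control arrays. In a fit over 17473 probe sets, in which 0.298% passed as lower, that probe set was lower by 0.91 on the log2 scale (SE 0.14, limma adjusted p = 0.0421), a call lost without any 1 of the 6 arrays (adjusted p = 0.0588 to 0.179). Cd93 differed by 0.24 (adjusted p = 0.556), and its probe set of next highest signal by 0.20.

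The 12 receptor and signalling genes had a median of -0.33, with 4 genes lower and 1 higher without overlap. Over all genes, 15.1% were lower and 13.0% higher without overlap. Tek, the angiopoietin receptor also called Tie2, stood at 10.18, 10.54 and 10.18 in knockout arrays and at 11.07, 10.90 and 10.80 in control arrays. The groups did not overlap (difference -0.62, SE 0.15, 65.1% of control, adjusted p = 0.091). Ptprb encodes VE-PTP, the phosphatase that acts on Tek and VE-cadherin, and stood at 11.67, 12.10 and 11.88 in knockout arrays and at 12.51, 12.54 and 12.45 in control arrays (difference -0.62, adjusted p = 0.0817). A further probe set read -0.43, also without overlap. Tie1, the co-receptor of Tek, differed by -0.37 (SE 0.23, adjusted p = 0.382) with overlap.

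Bmx, a Tec-family kinase of arterial endothelium, stood at 8.78, 8.72 and 9.21 in knockout arrays and at 9.71, 9.87 and 9.45 in control arrays (difference -0.77, SE 0.18, 58.5% of control, adjusted p = 0.0848). She, an SH2 domain adaptor, stood at 9.65, 9.68 and 9.64 in knockout arrays and at 10.24, 10.40 and 9.99 in control arrays (difference -0.55, adjusted p = 0.0971). Both genes separated the groups, She with a knockout SD of only 0.02 (n = 3), but a second, dimmer probe set differed by -0.31 with overlap.

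The VEGF receptors overlapped between groups. Kdr, the main signalling receptor for VEGF, stood at 10.77, 11.31 and 9.62 in knockout arrays and at 10.67, 11.04 and 10.83 in control arrays. Knockout 86 was the lowest array and knockout 73 the highest, and the difference of -0.28 became 0.19 without knockout 86. Flt1, which binds VEGF and placental growth factor, stood at 10.61, 10.66 and 10.15 in knockout arrays and at 10.69, 10.62 and 10.87 in control arrays (difference -0.26, adjusted p = 0.431). Its 2 other probe sets above the filter differed by -0.45 and -0.16. Robo4, an endothelial receptor of the Roundabout family, differed by -0.67 (SE 0.41) with a knockout SD of 0.83, and Ecscr by -0.17. Eng, the TGF-beta co-receptor endoglin, differed by 0.05 (interval -0.38 to 0.47).

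**Figure D2:**
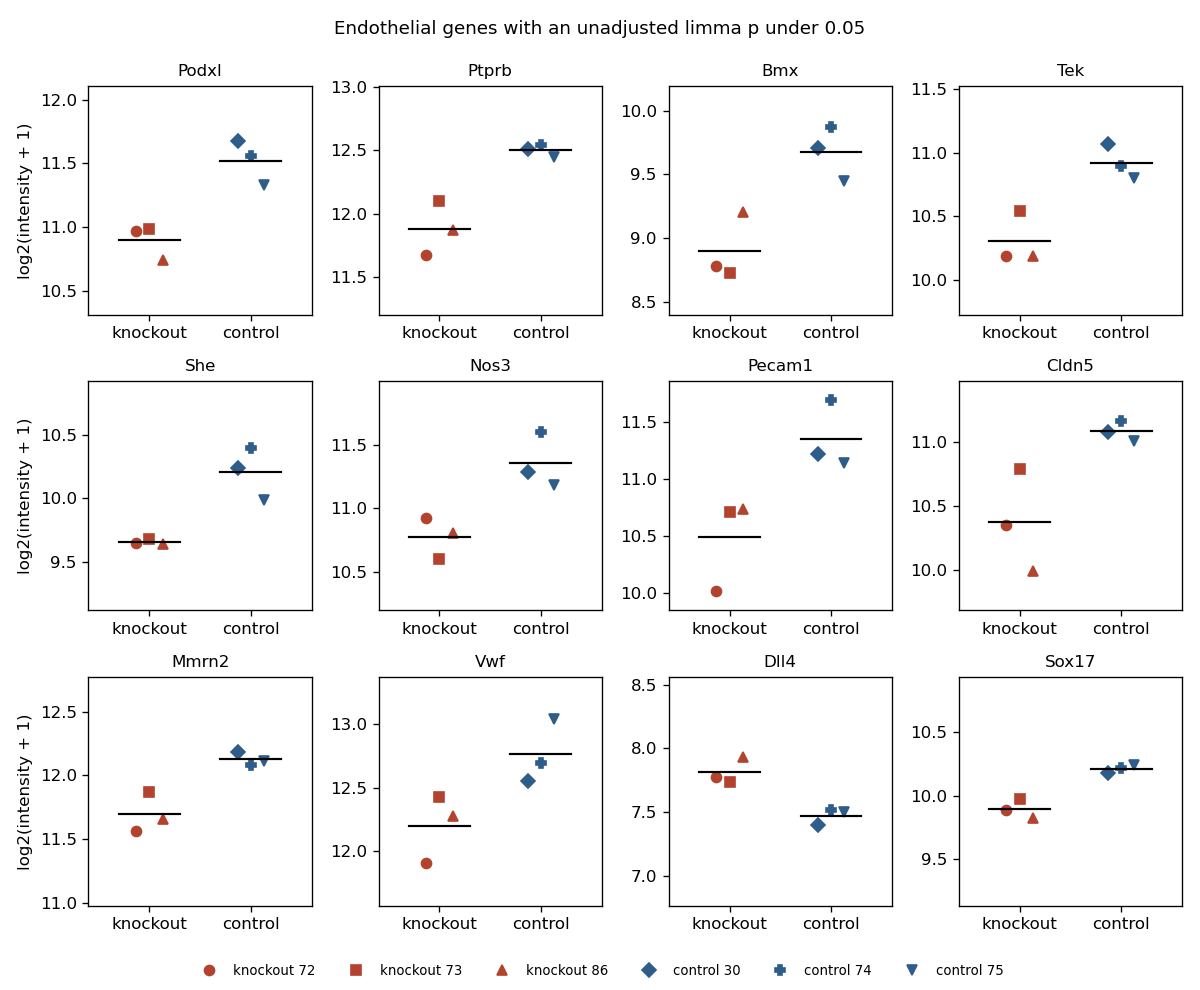
Values of the 12 endothelial genes with an unadjusted limma p under 0.05, in log2(intensity + 1), by array (3 knockout arrays left, 3 control arrays right). Horizontal lines are group means, and every panel spans the same height unless the data need more. In 11 panels all knockout points lie below all control points, and in the Dll4 panel they lie above.

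Genes of arterial identity stood on both sides of 0, and none of those tested passed in the main fit by gene. Dll4, the Notch ligand of arterial and sprouting endothelium, stood at 7.77, 7.74 and 7.93 in knockout arrays and at 7.39, 7.51 and 7.50 in control arrays in its brighter probe set (difference 0.35, SE 0.12, adjusted p = 0.168). Its other probe set read 7.35, 7.46 and 7.38 in knockout arrays and 6.38, 6.62 and 6.23 in control arrays. Both probe sets separated the groups in the same direction and differed in size. In the fit over probe sets, in which 1.21% passed as higher, the other probe set rose by 0.99 (SE 0.14, 1.98-fold, limma adjusted p = 0.0326). Without 1 array the call held without control 74 (adjusted p = 0.0361) and was lost in the other 5 fits (adjusted p = 0.0629 to 0.138). The mean of both probe sets, which includes this one, also passed (0.67, limma adjusted p = 0.0398).

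Efnb2, which encodes ephrin-B2, the arterial partner of venous Ephb4, stood at 10.25, 10.03 and 10.14 in knockout arrays and at 10.34, 9.85 and 10.07 in control arrays. The groups overlapped (difference 0.06, interval -0.32 to 0.43). The other Efnb2 probe sets above the filter differed by 0.14 with overlap and, in the dimmer of them, by 0.33 without overlap. Gja4 stood at 11.23, 11.05 and 11.47 in knockout arrays and at 11.70, 11.11 and 11.58 in control arrays, again with overlap (difference -0.22, interval -0.68 to 0.25). Gja5 lay below the filter, at 4.30, 3.93 and 4.33 in knockout arrays and 4.61, 4.08 and 4.15 in control arrays. With no filter its difference was -0.09 (SE 0.21, adjusted p = 0.863).

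The 8 transcription factors had a median of -0.13, the nearest to 0 of the 4 larger role groups. Sox17, which acts in arterial specification, stood at 9.89, 9.98 and 9.83 in knockout arrays and at 10.18, 10.22 and 10.24 in control arrays. The groups did not overlap, although the difference was only -0.32 (SE 0.11, adjusted p = 0.177). That probe set has an x suffix, so some of its probes also match other sequences, and the other probe set above the filter differed by -0.30 with overlap. The related SOXF factors Sox18 and Sox7 differed by -0.18 and -0.09. Erg, the ETS factor most tied to endothelial identity, stood at 9.31, 9.71 and 9.48 in knockout arrays and at 9.61, 9.34 and 9.57 in control arrays. Its difference of -0.0048 had an interval of -0.37 to 0.36, the smallest difference among the 39 genes, and it was 0.04 with no normalization between arrays.

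Transcription factors that leukocytes also express gave mixed values. Ets1, an ETS factor, stood at 10.31, 10.52 and 10.13 in knockout arrays and at 9.57, 10.26 and 9.74 in control arrays (difference 0.47, SE 0.21, adjusted p = 0.254), and the groups overlapped through knockout 86 and control 74. Its other probe set above the filter differed by 0.42 without overlap. Lyl1, a helix-loop-helix factor of blood and endothelium, differed by 0.31 (SE 0.33), Tal1, its close relative, by -0.17, and Fli1, another ETS factor, by -0.29, all 3 with overlap.

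Of the 8 genes of secreted proteins, enzymes and vesicle proteins, 6 were below 0, against 56.9% of all genes tested, with a median of -0.50. Nos3, the endothelial nitric oxide synthase, stood at 10.93, 10.60 and 10.81 in knockout arrays and at 11.29, 11.60 and 11.18 in control arrays. The groups did not overlap (difference -0.58, SE 0.16, 66.9% of control, adjusted p = 0.116). Vwf, the clotting glycoprotein stored in endothelial granules, stood at 11.91, 12.43 and 12.28 in knockout arrays and at 12.56, 12.70 and 13.04 in control arrays (difference -0.56, adjusted p = 0.164), with knockout 73 and control 30 the nearest values across the gap. Egfl7, a secreted endothelial matrix protein, differed by -0.39 (adjusted p = 0.363), and its 3 other probe sets by -0.45, -0.16 and -0.17. The probe sets at -0.39 and -0.45 have an x suffix, so some of their probes also match other sequences. Gpihbp1, which anchors lipoprotein lipase on capillaries, stood at 8.73, 9.68 and 7.76 in knockout arrays and at 9.07, 9.91 and 9.79 in control arrays (difference -0.87, SE 0.48). Knockout 73 lay among the controls, and knockout 86 lowest. Ushbp1 differed by -0.56 (SE 0.37), Plvap, the diaphragm protein of fenestrae and caveolae, by 0.24 (SE 0.36), and Apold1, an endothelial early response gene, by 0.14 (SE 0.27).

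Repeated probe sets mostly stood on the same side of 0. Beyond the probe set that stands for each gene, 13 genes had 19 more probe sets above the filter. Of these, 18 differed in the same direction and 1 in the other, that of Eng at -0.12. The other 13 probe sets of the 71 lay below the filter.

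Among the ligands of these receptors, 8 VEGF and angiopoietin genes were tested, and 1 passed as lower, where 0.657% of all genes did so. Without overlap, 2 of the 8 were lower and 1 higher, where 15.1% and 13.0% of all genes were so. Angpt1, the Tek agonist made by mural cells, stood at 7.52, 7.28 and 7.10 in knockout arrays and at 8.90, 8.33 and 8.67 in control arrays. No knockout value reached the control range. It fell by 1.33 on the log2 scale (SE 0.19, 39.7% of control, limma adjusted p = 0.0223). Its other probe set lay below the filter, with a difference of -0.15 and overlap, and the call was lost without control 30, control 75 or any 1 knockout array (adjusted p = 0.0525 to 0.0914) and with no filter (adjusted p = 0.0541). Angpt2, the antagonist released by endothelium, stood at 10.79, 10.50 and 10.90 in knockout arrays and at 10.29, 9.08 and 10.51 in control arrays (difference 0.77, adjusted p = 0.273). Control 74 was low and the other controls came near or within the knockout range.

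Pgf, the placental growth factor bound by Flt1, stood at 9.34, 9.07 and 10.14 in knockout arrays and at 7.82, 7.21 and 8.45 in control arrays. The groups did not overlap, and the difference of 1.69 (SE 0.38) missed the threshold (adjusted p = 0.0742). Vegfa differed by -0.02 (interval -0.73 to 0.68) and by -0.38 in its other probe set. Vegfd was lower without overlap (difference -0.64, adjusted p = 0.251). Angpt4 differed by -0.91 (adjusted p = 0.229), and its other probe set by -0.83.

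**Figure D3:**
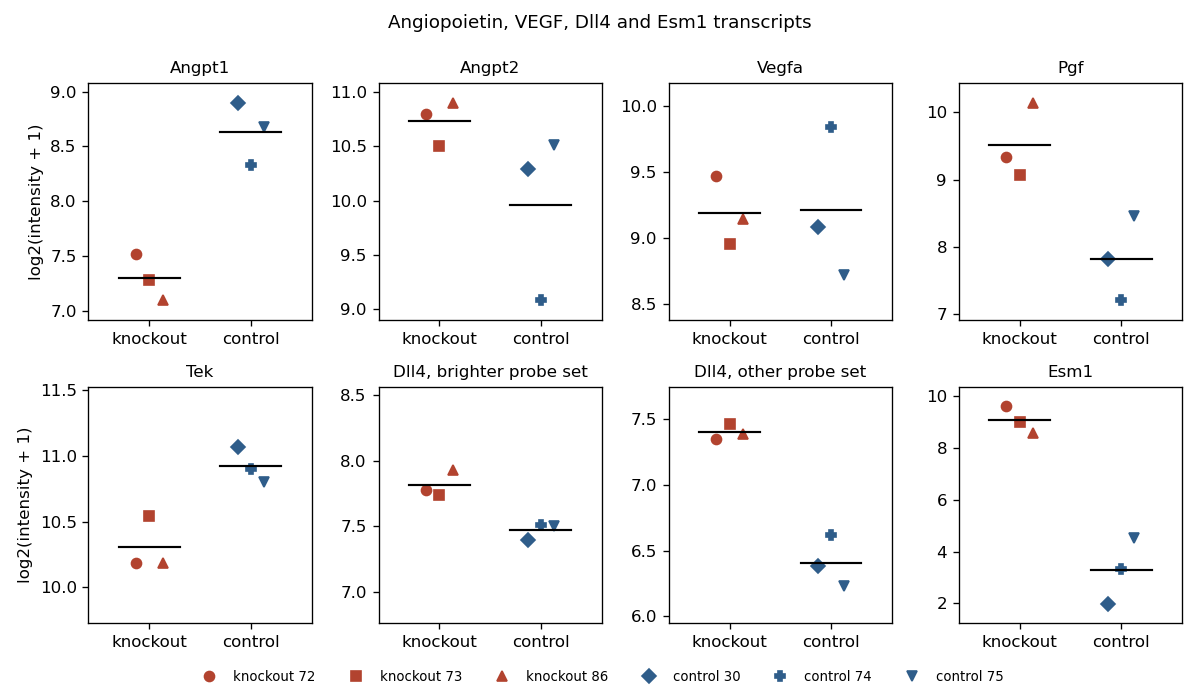
Values by array, in log2(intensity + 1), of angiopoietin and VEGF ligands, of Tek, of both Dll4 probe sets and of Esm1, with 3 knockout arrays left and 3 control arrays right and group means as lines. Panel heights differ. Angpt1 and Tek lie lower in the knockout arrays, Pgf, Dll4 and Esm1 higher, and Angpt2 and Vegfa overlap.

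Other endothelial states were counted from lists of general knowledge. Of 20 further endothelial genes tested, 0 passed the limma threshold, 4 were lower and 2 higher at an unadjusted p under 0.05, where 11.5% of all genes were lower and 9.86% higher, and the median was -0.10. Tspan18, an endothelial tetraspanin, differed by -0.93 (adjusted p = 0.115) and the neuropilin Nrp1, a VEGF and semaphorin co-receptor, by 0.47 (adjusted p = 0.156), both without overlap. Of 8 venous and lymphatic genes tested, 0 passed, 2 were lower at an unadjusted p under 0.05, and the median was -0.32. Of 5 genes of activated endothelium, such as Vcam1 (0.14) and Selp (0.05), 0 passed, 0 had an unadjusted p under 0.05, and the median was 0.05. Of 5 shear-responsive genes, such as Klf2 (-0.31) and Edn1 (-0.08), 0 passed, 0 had an unadjusted p under 0.05, and the median was -0.08.

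Of 8 genes of sprouting endothelium, 6 were tested and 0 passed, with 1 higher and 1 lower at an unadjusted p under 0.05. One of the 2 others, Esm1, which encodes the tip cell proteoglycan endocan, had a mean of 6.17, under the filter level of 6.50, because its control values were low. It stood at 9.62, 9.00 and 8.60 in knockout arrays and at 1.98, 3.32 and 4.52 in control arrays. The control values lay far under the filter level, which is the median of the named probe sets and not a measured detection limit. With control values set at that level, a choice made after seeing the data, Esm1 was 5.93-fold higher in knockout arteries. That size depends on the level chosen. The fit with no filter gave it a limma adjusted p of 0.0215, and its fitted difference of 5.80, or 4.40 with a pseudocount of 16, is not a measured size. Without 1 array and with no filter the adjusted p was 0.0382 to 0.0968, above the threshold without control 74 or any 1 knockout array.

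Arrays differed in their mean level over all 39 endothelial genes beyond the group. The mean was 9.88, 10.25 and 9.78 in knockout arrays 72, 73 and 86, against 10.15, 10.38 and 10.25 in control arrays 30, 74 and 75. Knockout 73 lay within the control range and the other knockout arrays below it. Among the knockout arrays, knockout 73 was the highest in 30 of 39 genes and knockout 86 the lowest in 20. Among the controls, control 74 was the highest in 23 and control 30 the lowest in 19. Without knockout 73, 21 genes were lower without overlap, against 22.3% of all genes in that fit, and the median became -0.49, but still 0 passed.

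Markers of other cells also varied between these arrays. Over all genes, 15.1% were lower and 13.0% higher without overlap. At an unadjusted limma p under 0.05, 11.5% of all genes were lower and 9.86% higher. The 9 macrophage genes tested were all above 0, 6 without overlap, with list means of 9.54 to 11.21 in knockout arrays and 8.13 to 9.04 in control arrays, and 0 passed the limma threshold, 8 having an unadjusted p under 0.05. The 4 haematopoietic genes tested had list means of 8.66 to 10.68 in knockout arrays and 6.75 to 7.81 in control arrays, and 0 of them passed, all 4 having an unadjusted p under 0.05. In both lists knockout 73 was the highest array, as it was for most endothelial genes among the knockout arrays. The 8 smooth muscle genes had list means of 12.20 to 12.53 in knockout arrays and 12.38 to 12.95 in control arrays, lowest in knockout 73 and, among controls, in control 74. The 4 Schwann cell genes tested were all below 0 without overlap, with a median of -0.74 and list means of 9.96 to 10.55 in knockout arrays and 10.86 to 11.25 in control arrays. None of the 4 passed, and all had an unadjusted limma p under 0.05. The 6 pericyte genes had a median of -0.43, with 4 below 0, 0 passing and overlapping list means of 10.64 to 11.12 in knockout arrays and 10.70 to 11.49 in control arrays. The 5 proliferation genes tested, such as Mki67 and Top2a, all passed as higher, where 1.76% of all genes did so. Their differences were 0.88 to 4.44, with list means of 9.99 to 10.56 in knockout arrays and 6.74 to 6.88 in control arrays. Control means of Cdk1 (5.59), Birc5 (5.75), Top2a (6.10) and Mki67 (6.24) lay under the filter level, and that of Pcna (10.42) above it. All differences but that of Pcna thus start from low control values, and their sizes are uncertain. Pcna missed the threshold with no filter and without any 1 array other than control 74, and the other 4 passed in each of these fits. White adipocyte genes ranged from 9.07 to 10.34 in knockout arrays and from 8.66 to 11.20 in control arrays, with control 30 and knockout 86 low and control 74 high. Adventitial fibroblast genes had means of 11.99 to 12.10 in knockout arrays and 11.16 to 11.77 in control arrays, and 1 of 6, Col1a1, passed as higher (1.23, limma adjusted p = 0.0309, lost with no filter and without control 75 or any 1 knockout array). Platelet genes, which share Vwf and Pecam1 with endothelium, had means of 7.34 to 7.89 in knockout arrays and 7.30 to 7.99 in control arrays. None of the 5 erythroid and 6 mesothelial genes named on the array passed the filter. The part of these cells in the endothelial values was not tested.

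**Figure D4:**
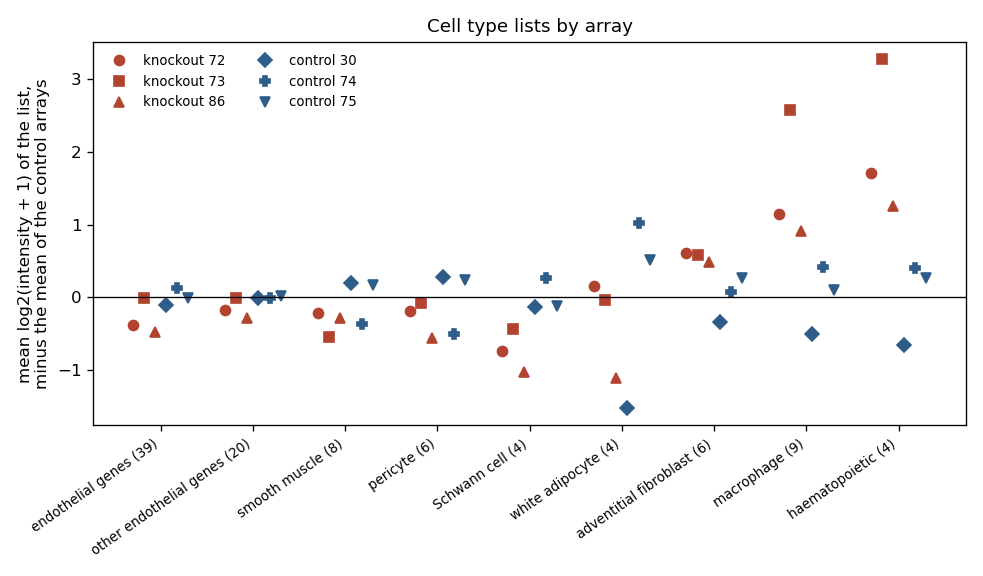
Mean log2(intensity + 1) of each cell type list in each array, minus the mean of the 3 control arrays, with the number of genes tested in brackets. Knockout arrays are drawn left of control arrays within each list. The endothelial means overlap between groups, the Schwann cell means are lower in all 3 knockout arrays, and the macrophage and haematopoietic means are higher in all 3, most in knockout 73.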

How the data were processed

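Biotin-labelled total RNA of each mouse's mesenteric arteries was read on 1 Affymetrix array, per the labels. The authors deposited a table of linear intensity for 45037 probe sets, and their steps of probe summary and array scaling are not given in the sources used here. Each array holds 589 to 680 values of exactly 1. With 3 arrays a group, precision is limited by their number.

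The platform annotation, dated 2016, gives 1 gene symbol to 34945 probe sets, several to 932 and none to 9160, and the first kind alone was used. Gene identifiers of 34741 matched a GRCm38.p6 table, which changed 0 symbols. The intensity values were put on the log2(intensity + 1) scale and then quantile normalized. Probe sets with a mean under the median of the named probe sets, 6.50, were left out, which left 17473, and the probe set of highest mean stood for each gene. The test was that of limma 3.58.1 in R 4.3.3 (lmFit and eBayes, 2-sided) with Benjamini-Hochberg adjustment over 10654 genes. The p-values rest on the spread between these mice within each group. Nothing in the labels names litters or days, so differences between these could not be taken into account. The procedure was tested on simulated data.

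The members and lists were chosen with earlier results of these data known, so no p is adjusted over a list alone and no set test was run. Values by array are given for members with an unadjusted p under 0.05, for the defining and arterial genes, and for further members whose arrays vary widely, the last chosen after their values were seen. In other lists the genes named come from those with the smallest p, with Adipoq, Angpt2, Vegfa, Vcam1, Selp, Pcna and Esm1 also chosen after their values were seen. Alternatives were other filters, probe set rules, normalizations, a higher pseudocount (16), a robust prior with trend, weights per array and each array left out.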

Additional observations from a re-analysis of the deposited data

How the results depend on the processing

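Counts are by gene, and in the fit over probe sets each gene was counted by its brightest probe set. Counted so, no endothelial gene passed as lower with any filter, probe set rule, normalization, pseudocount or prior tried, nor without any 1 array. The exception was array weights, under which 9 passed as lower (Vwf, Ptprb, Mmrn2, Podxl, Pecam1, Cldn5, Tek, She and Bmx), while 1131 of all genes passed, 10.6%, against 2.42%. With the mean of all probe sets, 1 passed as higher, Dll4. Outside these counts, a dimmer probe set passed in the fit over probe sets for 2 genes. That of Clec14a was lower (limma adjusted p = 0.0421) and that of Dll4 higher (limma adjusted p = 0.0326). The median of -0.29 lay between -0.49, without knockout 73, and -0.22, without knockout 86, with 1 array left out. Over all genes the count of 258 was 141 with the 70th percentile filter and 174 with no filter. In the fit over probe sets it was 180 by each gene's brightest probe set. Of all probe sets in that fit, 211 passed as higher and 52 as lower. With 1 array left out the count by gene was 45 to 240, lowest without knockout 72. The share of higher calls by gene was 72.9%, 61.3% with median centring, 90.2% with no filter, 48.4% with array weights and 61.3% to 91.9% with 1 array left out. Genes near 0 changed sign, as Eng did with the mean of probe sets (-0.038) and with median centring (-0.058), Efnb2 with median centring (-0.0095), Erg with no normalization (0.037) and Plvap with array weights (-0.12). With 1 array left out, Erg ranged from -0.11 to 0.090, Sox7 from -0.23 to 0.033, Eng from -0.12 to 0.16, Lyl1 from -0.036 to 0.52, Kdr from -0.65 to 0.19, Apold1 from -0.16 to 0.38, Sox18 from -0.30 to 0.0018, Plvap from -0.12 to 0.56, Ecscr from -0.33 to 0.077 and Efnb2 from -0.064 to 0.18. The cause of these shifts was not tested. No paired analysis was possible because the groups share no animal number. With 3 arrays per group, the 95% interval of 9 genes includes a difference below -1 and that of 2 genes a difference above 1, so changes of that size were not excluded there.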
